A study of Arabidopsis thaliana with 5 samples.

Results

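The regions described here are 642 peaks of FLAG-NDX, a tagged form of the Arabidopsis homeodomain protein NDX, that lay in the pericentromeric zones, outside every gene and pseudogene, and at places where the second tagged form, NDX-GFP, had no peak. They were 28.6% of the 2243 FLAG-NDX peaks and were selected on the peak lists themselves. A peak was kept when it overlapped none of the 583 NDX-GFP peaks, which left 1987, when its midpoint lay in a zone of 5 Mb, which left 1006, and when that midpoint lay in no annotated gene or pseudogene. The zones ran from 12.8 to 17.8 Mb on chromosome 1, 2.5 to 7.5 Mb on chromosome 2, 11.6 to 16.6 Mb on chromosome 3, 1 to 6 Mb on chromosome 4 and 9 to 14 Mb on chromosome 5. Since the lists chose the peaks, their place in the zones, the absence of NDX-GFP overlap and their position outside gene bodies are descriptions and not findings.

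Chromatin immunoprecipitation followed by sequencing was carried out on seedlings aged 10 days, with 2 immunoprecipitations for each line and 1 input sample for the FLAG-NDX line, 5 samples in all. The first line carried FLAG-NDX and was labelled flag-NDX / ndx1-1(FRI) / flc-2, and the second carried NDX-GFP and was labelled NDX-GFP / ndx1-1(FRI) / flc-2. Both lines therefore shared the ndx1-1(FRI) and flc-2 alleles, and they differed in the tag and in the antibody, which was anti-FLAG in the first and anti-GFP in the second. The promoter of either transgene and the number of independent lines were not given in the sources used here, and an untagged ndx1-4 line that the labels name as a control was not analysed here. The extraction protocol in the same labels describes digesting the protein and pulling down DNA-RNA hybrids with the antibody S9.6, which departs from the tag antibodies, and from the lists these procedures cannot be told apart.

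For each line there was 1 list of peaks on the TAIR10 genome, with a position and a score for each peak. The unit of the score was not stated, and its lowest value was 82 in both lists. With 1 list per line no spread between replicates could be measured and no test was possible, so every difference below compares counts, shares or medians as they stand in the lists and was not tested. The lists hold no read numbers. The depth behind a score is therefore unknown, and intervals based on it are not given.

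Pericentromeric sequence in Arabidopsis is mostly heterochromatin, rich in transposons, decayed gene copies and satellite repeats, and kept silent by DNA and histone methylation. RNA polymerase IV, RDR2 and DCL3 make small interfering RNAs from many such repeats, and these guide DNA methylation outside CG sites. NDX is a nuclear protein with a homeodomain, a fold that binds DNA and in many family members prefers a short core of 4 letters, TAAT.

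The sequences that recur below are given first, on the plus strand of the TAIR10.1 assembly from RefSeq. The member with the highest score, 334.5, is shown because an uninterrupted alternation of A and G fills most of it, and the member nearest to the silencing gene CLSY1 because it holds the same dinucleotide on the other strand. Capitals mark GAGAGA in the former and TAAT or ATTA in the latter.
Member chr2:4733716-4733895: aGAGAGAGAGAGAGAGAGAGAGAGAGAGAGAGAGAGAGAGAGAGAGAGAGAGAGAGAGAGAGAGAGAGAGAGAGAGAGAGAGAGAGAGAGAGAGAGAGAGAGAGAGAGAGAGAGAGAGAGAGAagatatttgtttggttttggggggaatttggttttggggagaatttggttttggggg
Member chr3:14762146-14762310: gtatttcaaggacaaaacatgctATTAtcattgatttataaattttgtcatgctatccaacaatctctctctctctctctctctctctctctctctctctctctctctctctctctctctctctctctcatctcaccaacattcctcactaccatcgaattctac

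Members in arrays of tandem repeats are shown next, the highest-scoring ones whose best match came at 1 unit of 159, 159, 178 and 97 bp. A capital marks a base that is identical to the base 1 unit before or after it on the chromosome, and of the second member, 315 bp wide, the first 300 bases are printed.
Unit of 159 bp, chr4:4061746-4061910: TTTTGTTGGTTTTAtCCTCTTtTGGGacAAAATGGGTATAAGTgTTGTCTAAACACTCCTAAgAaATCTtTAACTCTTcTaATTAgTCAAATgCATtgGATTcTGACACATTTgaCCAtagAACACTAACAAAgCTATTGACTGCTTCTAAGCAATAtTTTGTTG
Unit of 159 bp, chr1:14691061-14691360: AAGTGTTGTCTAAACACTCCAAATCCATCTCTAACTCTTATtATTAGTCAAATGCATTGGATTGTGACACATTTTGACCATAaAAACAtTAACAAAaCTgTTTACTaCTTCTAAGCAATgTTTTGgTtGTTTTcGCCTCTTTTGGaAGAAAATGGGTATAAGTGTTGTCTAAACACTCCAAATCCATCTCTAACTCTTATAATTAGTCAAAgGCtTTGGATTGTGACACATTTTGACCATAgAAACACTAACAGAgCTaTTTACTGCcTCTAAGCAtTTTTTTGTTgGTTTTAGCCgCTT
Unit of 178 bp, chr5:11736316-11736570: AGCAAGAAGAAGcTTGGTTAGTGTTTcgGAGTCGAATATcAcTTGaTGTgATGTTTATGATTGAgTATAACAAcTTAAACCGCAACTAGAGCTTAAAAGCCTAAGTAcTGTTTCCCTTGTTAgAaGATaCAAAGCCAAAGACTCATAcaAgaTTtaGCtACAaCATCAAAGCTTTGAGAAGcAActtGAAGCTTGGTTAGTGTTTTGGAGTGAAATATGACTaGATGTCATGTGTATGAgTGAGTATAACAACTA
Unit of 97 bp, chr2:3693916-3694155: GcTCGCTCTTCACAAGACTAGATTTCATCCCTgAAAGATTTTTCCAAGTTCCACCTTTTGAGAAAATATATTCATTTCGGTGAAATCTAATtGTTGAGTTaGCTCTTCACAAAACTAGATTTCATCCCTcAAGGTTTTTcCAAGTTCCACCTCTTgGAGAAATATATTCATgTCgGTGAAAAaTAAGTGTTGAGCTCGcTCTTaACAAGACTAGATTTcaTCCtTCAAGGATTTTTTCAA

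The highest-scoring member of the second largest family of related members carries many copies of the plant telomere motif TTTAGGG on the minus strand. Its first 300 bases are printed, with CCCTAAA in capitals.
Telomere-like, chr1:15272521-15272820: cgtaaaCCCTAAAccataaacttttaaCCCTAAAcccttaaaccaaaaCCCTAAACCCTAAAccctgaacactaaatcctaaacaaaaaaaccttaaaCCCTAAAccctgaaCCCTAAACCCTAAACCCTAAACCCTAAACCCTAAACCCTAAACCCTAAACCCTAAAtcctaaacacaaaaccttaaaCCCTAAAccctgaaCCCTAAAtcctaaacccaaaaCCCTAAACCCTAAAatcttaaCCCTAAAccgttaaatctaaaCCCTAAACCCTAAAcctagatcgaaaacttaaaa

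Pairs of members from 3 further families show how far peaks at different places have the same letters. Capitals mark the stretches of 31 or more bases that both copies of a pair hold, in the same direction in the first and second pairs and in opposite directions in the last, and of longer copies the first 300 bases are printed.
Family on chromosome 1, chr1:14909776-14910045: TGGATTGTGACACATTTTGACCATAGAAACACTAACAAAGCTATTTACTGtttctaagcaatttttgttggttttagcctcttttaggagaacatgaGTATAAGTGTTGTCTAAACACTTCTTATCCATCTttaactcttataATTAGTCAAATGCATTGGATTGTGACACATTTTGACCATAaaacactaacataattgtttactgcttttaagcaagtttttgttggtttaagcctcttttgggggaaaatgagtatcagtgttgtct
Family on chromosome 1, chr1:14941051-14941320: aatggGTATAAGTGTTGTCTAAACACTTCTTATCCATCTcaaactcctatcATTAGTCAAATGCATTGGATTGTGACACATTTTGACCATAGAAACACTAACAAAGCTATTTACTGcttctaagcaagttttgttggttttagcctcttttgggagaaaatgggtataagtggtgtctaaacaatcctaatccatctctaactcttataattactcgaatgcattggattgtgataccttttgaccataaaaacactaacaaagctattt
Family on 5 chromosomes, chr4:3126586-3126765: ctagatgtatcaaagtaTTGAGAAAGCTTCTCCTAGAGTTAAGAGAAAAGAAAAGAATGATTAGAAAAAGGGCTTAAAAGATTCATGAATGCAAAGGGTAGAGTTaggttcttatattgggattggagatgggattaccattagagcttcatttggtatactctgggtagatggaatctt
Family on 5 chromosomes, chr5:11780416-11780715: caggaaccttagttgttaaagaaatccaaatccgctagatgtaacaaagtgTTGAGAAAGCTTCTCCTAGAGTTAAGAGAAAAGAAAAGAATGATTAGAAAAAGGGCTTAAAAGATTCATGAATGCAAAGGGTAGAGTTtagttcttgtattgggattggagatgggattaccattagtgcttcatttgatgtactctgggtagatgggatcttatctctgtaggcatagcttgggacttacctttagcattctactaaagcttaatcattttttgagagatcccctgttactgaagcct
Family on 4 chromosomes, chr3:12050596-12050745: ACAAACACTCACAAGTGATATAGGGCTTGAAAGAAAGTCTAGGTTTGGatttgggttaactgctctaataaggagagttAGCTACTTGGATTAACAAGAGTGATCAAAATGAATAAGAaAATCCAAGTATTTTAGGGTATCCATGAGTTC
Family on 4 chromosomes, chr5:12015706-12016005: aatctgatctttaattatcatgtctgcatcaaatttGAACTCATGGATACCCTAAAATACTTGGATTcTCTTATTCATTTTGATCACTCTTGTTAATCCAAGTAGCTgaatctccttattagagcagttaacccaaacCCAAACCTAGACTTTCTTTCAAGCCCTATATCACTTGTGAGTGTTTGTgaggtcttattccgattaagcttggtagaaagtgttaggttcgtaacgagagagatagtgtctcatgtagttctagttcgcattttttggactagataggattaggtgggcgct

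Lastly, the 3 highest-scoring members with no repeated sequence are shown, with TAAT or ATTA in capitals.
Without repeats, chr1:16884946-16885110: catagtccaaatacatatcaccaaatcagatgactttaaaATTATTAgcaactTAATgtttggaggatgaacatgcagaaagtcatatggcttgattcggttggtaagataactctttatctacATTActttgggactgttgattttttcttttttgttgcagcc
Without repeats, chr5:12686491-12686610: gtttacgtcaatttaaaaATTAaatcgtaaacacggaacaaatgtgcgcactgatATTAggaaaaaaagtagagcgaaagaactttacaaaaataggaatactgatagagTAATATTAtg
Without repeats, chr5:9006661-9006825: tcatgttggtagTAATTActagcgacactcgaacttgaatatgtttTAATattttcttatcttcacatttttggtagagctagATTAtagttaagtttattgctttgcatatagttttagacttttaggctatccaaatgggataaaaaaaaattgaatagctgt

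The scores of the members ran from 83 to 334.5, with a median of 120 and quartiles of 105 and 139. FLAG-NDX peaks selected in the same way on the chromosome arms, 379 in number, had a median score of 115, and the 102 non-genic FLAG-NDX peaks of the zones that did overlap an NDX-GFP peak had one of 135. Members were 105 to 615 bp wide with a median of 135 bp, against 120 bp on the arms and 172.5 bp for the shared peaks. The members thus lay between the other classes in score and in width. Across the 642 members the score was higher in wider peaks (Spearman's rho 0.37), while rho was 0.13 with the share of repeated sequence, 0.08 with the distance to the nearest gene or pseudogene, -0.01 with GC content and -0.04 with the distance from the zone centre. These coefficients describe peaks of 1 list, which share their libraries, and a peak's score and width come from the same call.

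Chromosome 1 held 231 of the members, 36.0%, and the other chromosomes held 81, 94, 124 and 112 in the order of their numbers. Per Mb of sequence outside genes and pseudogenes this came to 88.9 members on chromosome 1, 34.6 on chromosome 2, 38.1 on chromosome 3, 52.5 on chromosome 4 and 45.1 on chromosome 5. The median scores differed less than the densities, at 123, 115, 119.5, 113 and 120.5 in the same order. The highest score of each chromosome was 236, 334.5, 224, 291 and 283.5.

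Members were denser toward the middle of the zones. Within 0.5 Mb of the centres, which are the midpoints of the zones and not annotated centromeres, there were 98.2 members per Mb of non-genic sequence, against 64.7, 42.9, 26.0 and 23.1 in the successive steps of 0.5 Mb outward. The innermost step was 4.25 times as dense as the outermost over all chromosomes, 10.4 times on chromosome 1 and 2.76 times on chromosomes 2 to 5. In sequence with no repeated 31-mer, a stretch of 31 bases that occurs again anywhere in the nuclear or organelle sequence on either strand, the ratio was 2.21. On chromosome 1 the innermost step of that sequence held only 4 members, so its own ratio of 3.93 rests on few peaks.

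**Figure D1:**
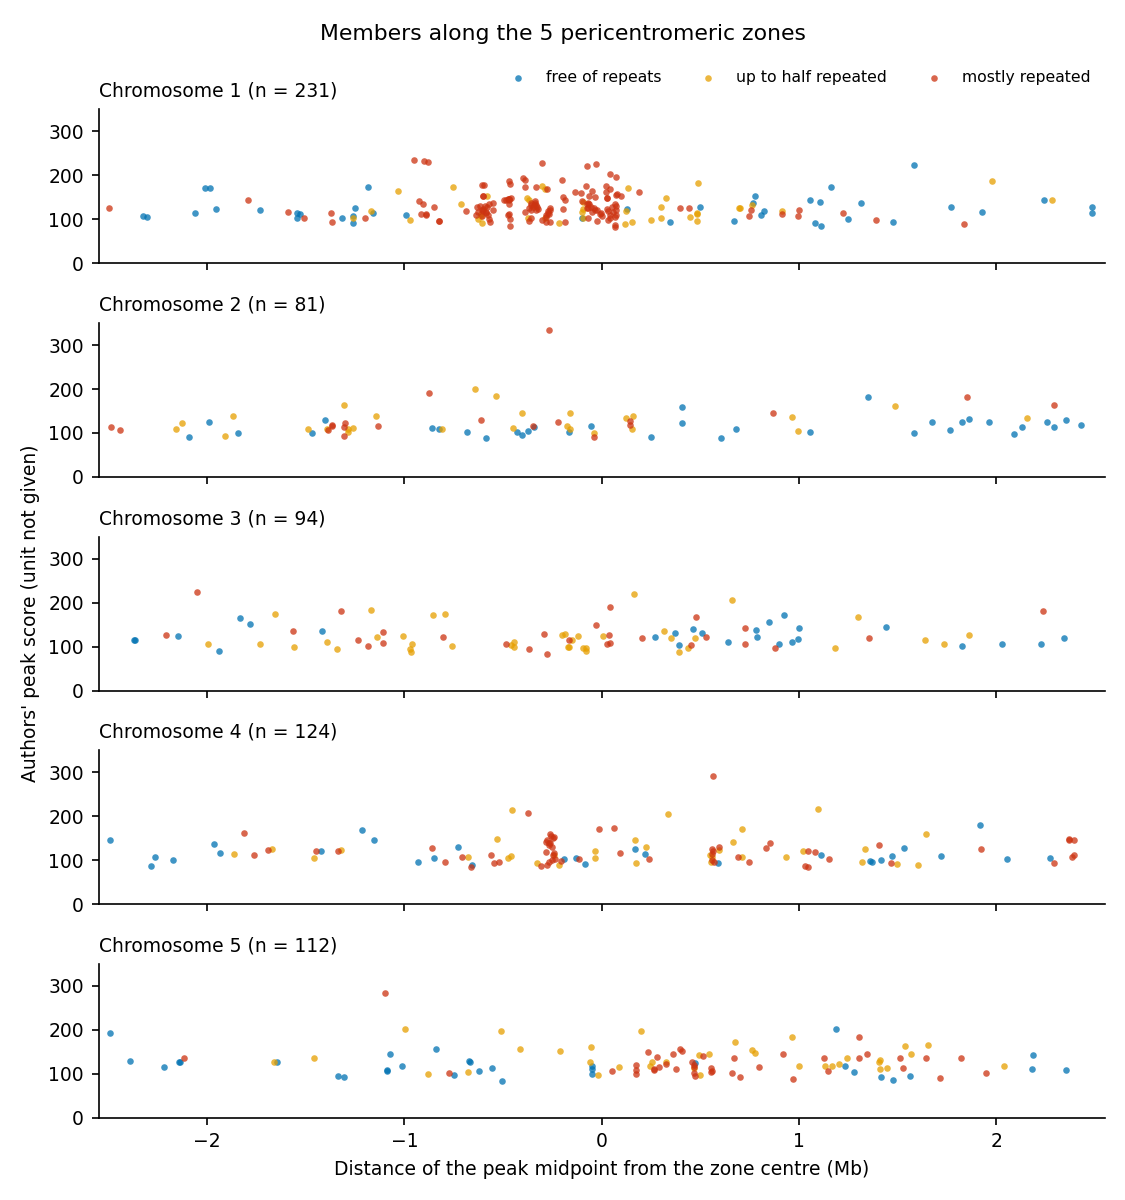
Each point is 1 of the 642 members, placed by the distance of its midpoint from the zone centre in Mb (horizontal axis) and by its score (vertical axis, unit not given), with colours for members free of repeated 31-mers, up to 50% repeated and over 50% repeated. On chromosome 1 the 231 members crowd into the middle of the zone and most there are repeated, while the 81 members of chromosome 2 are spread along it.

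**Figure D2:**
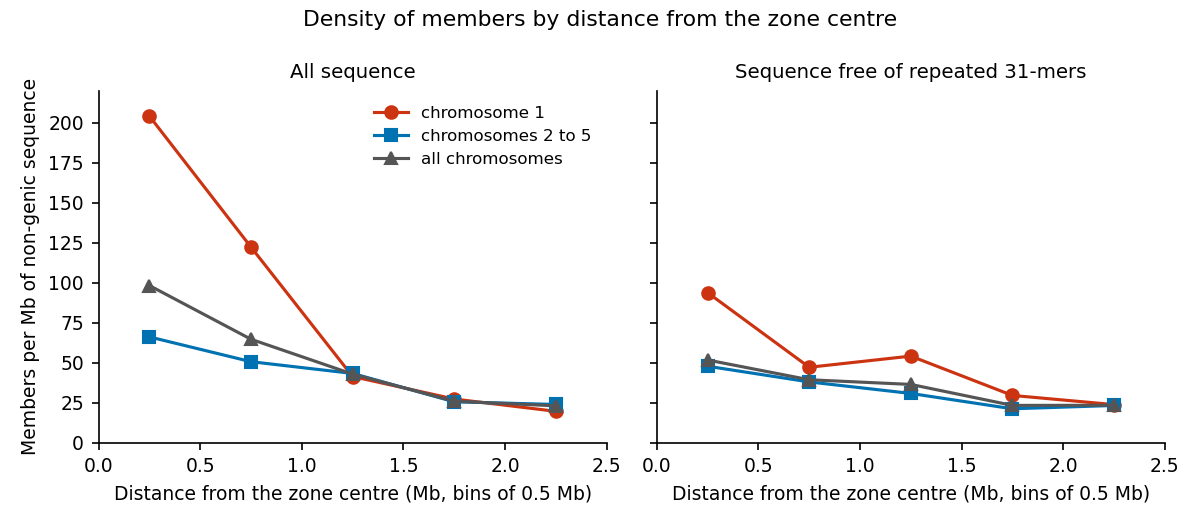
Members per Mb of non-genic sequence (vertical axis) in steps of 0.5 Mb from the zone centre (horizontal axis), for all sequence on the left and for sequence free of repeated 31-mers on the right, on chromosome 1, chromosomes 2 to 5 and all chromosomes. On chromosome 1 the density fell from 204.0 in the innermost step to 19.7 in the outermost, and on chromosomes 2 to 5 from 66.1 to 24.0.

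Many members lay in groups. A second member lay within 1 kb of 121 members, within 5 kb of 273 (42.5%) and within 10 kb of 365. Such shares were not computed for other peaks or for the local density alone. Whether members lay closer together than their density gives was therefore not tested. Chained at 5 kb, the members formed 82 groups of at least 2, of which 20 held 4 or more, and 369 members stood alone. The largest group had 13 members in 22.4 kb, at chr1:14684386-14706825, with scores of 92 to 178 and 10 members over 50% repeated. The next had 12 in 18.2 kb at chr1:14822371-14840595, all of them over 50% repeated. Among the 250 windows of 100 kb in the zones, 196 held a member, and the fullest were chr1:15200001-15300000 and chr1:15300001-15400000 with 25 each, chr1:14900001-15000000 with 24 and chr4:3200001-3300000 with 20.

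The members were richer in repeated sequence than the non-genic sequence of the zones as a whole. Of the 642, 161 (25.1%) had no repeated 31-mer, 178 (27.7%) had up to 50% of their 31-mers repeated and 303 (47.2%) more than 50%, among them 170 (26.5%) in which every 31-mer was repeated. In 90736 windows of 135 bp that tile the non-genic sequence of the zones, 41.5% were free of repeats, 26.7% were over 50% repeated and 9977 were fully repeated, which is 10.996%. On the arms 71.8% of the comparable peaks were free of repeats, and 11.8% of the shared pericentromeric peaks were. Windows have a fixed width and members do not, so part of any such gap may come from the width, which was not tested. Members also lay nearer the zone centres than windows did. Within 0.5 Mb of the centres, 26 of 267 members and 0.503 of 2.72 Mb of non-genic sequence were free of repeats. Beyond 2 Mb, 34 of 53 members and 1.45 of 2.29 Mb were. The part of position in the gap was not tested.

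The share of repeated members was not the same on every chromosome. On chromosome 1, 64.9% of the members and 34.3% of the windows were over 50% repeated, and on chromosome 4 the values were 50.0% and 25.6%. On chromosome 5 they were 38.4% and 27.5%, on chromosome 3 29.8% and 24.7%, and on chromosome 2 24.7% and 20.3%. Members exceeded windows on all 5 chromosomes, most of all on chromosomes 1 and 4.

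Repeated members had slightly higher scores. The median was 114 in the 161 members free of repeats, with quartiles of 103 and 128, 120 in those up to 50% repeated and 122 in those over 50% repeated, with quartiles of 108 and 143. The ranges of the classes overlapped almost entirely. The classes also differed in width, with medians of 120 bp in members free of repeats and 150 bp in each of the others. The part of width in the scores was not tested. The 3 highest scores, 334.5, 291 and 283.5, belonged to members over 50% repeated, and the highest of a member free of repeats was 223, at chr1:16884946-16885110 near the pseudogene AT1G44707. The next free of repeats scored 203 at chr5:12686491-12686610, near the pseudogene AT5G33410, and 193 at chr5:9006661-9006825, near the long non-coding RNA gene AT5G04125. These 3 are printed above. Then came 182 at chr2:6350116-6350235, near the pseudogene AT2G14793, and 180 at chr4:5415916-5416020, near the protein-coding gene AT4G08520.

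**Figure D3:**
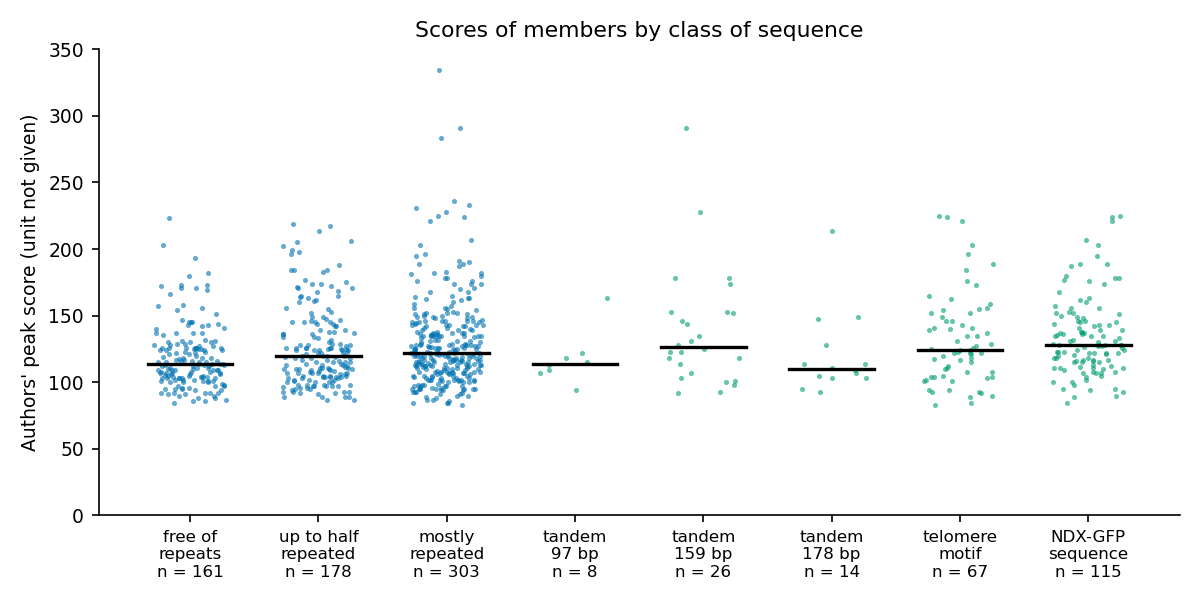
Score of each member (points, unit not given) in 3 classes of repeat content, in tandem arrays of 3 unit lengths, with the telomere motif, and with 20 or more 31-mers in common with an NDX-GFP peak, where a member can stand in more than 1 column and the bars are medians. The medians run from 110 for the 14 members with a unit of 178 bp to 128 for the 115 members with NDX-GFP sequence, and the points of all columns overlap.

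Sequence of the chloroplast and mitochondrial genomes was not found in the members. Of the 642, 0 held a 31-mer of either organelle, whereas 726 of the windows, 0.800%, did. The arm peaks, the shared pericentromeric peaks and the FLAG-NDX-only peaks in pseudogenes of the zones also had 0, so this was not particular to the members. The median GC content was 34.7%, with quartiles of 31.9% and 37.0%, against 32.6% with quartiles of 27.4% and 37.8% in the windows and 33.3% in the arm peaks. The quartiles of the members thus lay closer together than those of the sequence around them. They were 29.7% and 36.0% in the arm peaks, 32.8% and 36.7% in the shared pericentromeric peaks, and 34.3% and 38.7% in the peaks in pseudogenes. The narrower range was therefore not particular to the members either.

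Some members exist more than once in the assembly, letter for letter. Of the 170 fully repeated members, 154 had at least 1 further exact copy of their whole length, 128 of them exactly 1 and the most copied 16. Of the 225 other copies, 216 lay in the zones. For scale, the 642 members, with a median width of 135 bp, lay in 12.2 Mb of non-genic zone sequence. The share of that sequence inside peaks was not computed. Among the 225 copies, 47 (20.9%) lay in a FLAG-NDX peak, and 9 members had a copy in an NDX-GFP peak. In most cases, then, 1 copy of a sequence was in the list and its twin was not. How reads that match several places were treated is not given in the sources used here, and its part in this was not tested.

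Chromosome 1 held 107 of the 154 members with exact copies, and every one of the 107 had a copy on that chromosome. The spacing recurred. In 18 members with 1 other copy the copy lay exactly 98097 bp away, between chr1:15250831 and 15374445, and 5 of the 18 copies were in a FLAG-NDX peak. In 7 members between chr1:14348146 and 14419110 it lay exactly 45653 bp away, and 0 of those 7 copies were in a FLAG-NDX peak, although 3 of the members had the fourth to sixth highest scores of all. These were chr1:14348146-14348400 with 236, chr1:14400796-14401035 with 233 and chr1:14418841-14419110 with 230.5, each over 1 kb from the nearest pseudogenes, AT1G38212, AT1G38290 and AT1G38320. A further 6 members between chr1:14828236 and 14831745 had their copy 155948 bp away, 3 of them in a FLAG-NDX peak.

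Arrays of tandem repeats accounted for 53 members, 8.26%. A member was counted here when at least 70% of the bases of the peak and 500 bp on either side were identical to the base at some fixed lag of 20 to 600 bp. None of the 379 arm peaks met this, and 11.8% of the shared pericentromeric peaks did. The share was not computed for the non-genic windows of the zones. Whether members lay in arrays more or less often than the zone sequence around them was therefore not tested. Nearly all the members fell on 3 unit lengths or their multiples, with 26 at 159 bp, 14 at 178 bp and 8 at 97 bp, and the other 5 had lags between 447 and 507 bp. The unit of 178 bp is the length known for the satellite of the Arabidopsis centromeres. No satellite annotation or sequence was used here, so only the length was compared.

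The unit lengths had different distributions over the chromosomes. Of the members with the 159-bp unit, 22 lay on chromosome 1 between 14609701 and 15035550, with scores of 92 to 227.5, and 4 lay within 1.08 kb of chromosome 4, at 4060831 to 4061910, with scores of 101 to 291. The printed copies of both chromosomes hold a run of 31 identical bases. The 178-bp unit was found in 8 members of chromosome 5, 5 of chromosome 4 and 1 of chromosome 2, and its highest score was 213.5, at chr4:3043171-3043365, where the peak lay 180 bp from an NDX-GFP peak. All 8 members with the 97-bp unit lay on chromosome 2, in 87.0 kb from 3609751, with scores of 94 to 163.5. The median scores were 126.5, 110 and 114 for units of 159, 178 and 97 bp, against 120 in members of no array, so arrays as such did not stand out by score.

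**Figure D4:**
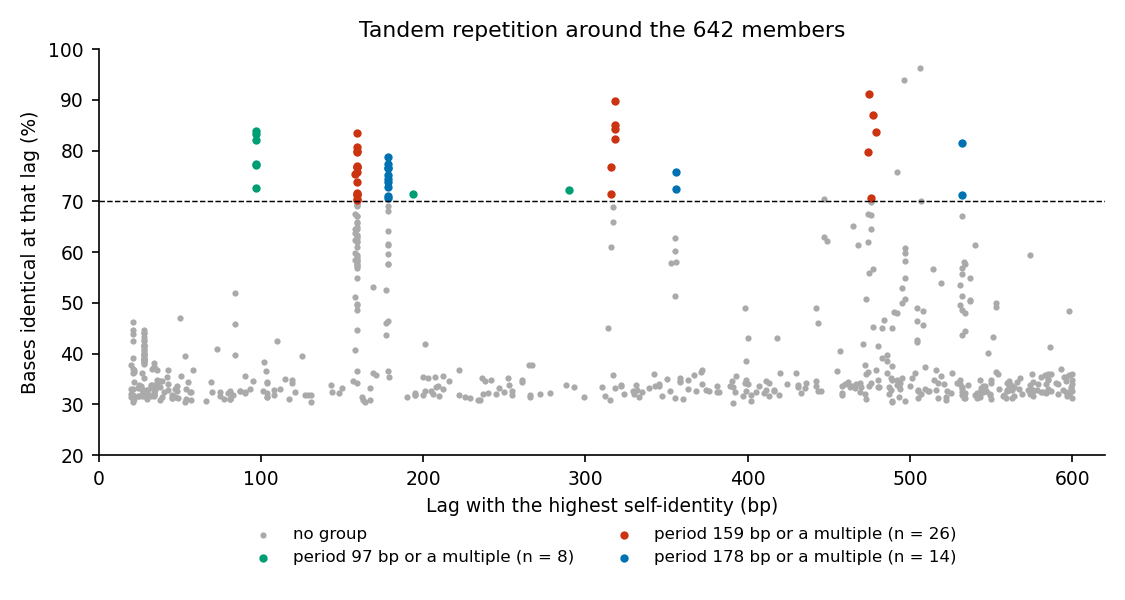
Each point is a member, placed by the lag at which its sequence and 500 bp on either side best matched themselves (horizontal axis, bp) and by the percentage of identical bases at that lag (vertical axis), with the dashed line at 70%. The 26, 14 and 8 members of the units of 159, 178 and 97 bp stand in columns at 1, 2 and 3 times those lengths, further columns of points at 159 and 178 bp fall below the line, and most members lie near 30 to 40% at no common lag.

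Shared sequence also tied members at different places together. Joined whenever they had 20 or more 31-mers in common on either strand, 159 members (24.8%) fell into 35 families, and 483 had no such partner. This share was not computed for other peaks or for windows. Whether members had more sequence in common than the repeated sequence of the zones gives was therefore not tested. In 24 families all members lay on 1 chromosome, and 24 families had just 2 members.

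The largest family had 38 members, all on chromosome 1 in 364 kb between 14672055 and 15036442, with scores of 93 to 189 and a median of 131. Of its members, 9 were counted in tandem arrays, that at chr1:14828236-14828385 with a lag of 507 bp and the others with 159 bp or a multiple. The printed copies of the family had best lags of 159 and 158 bp, at 63.1 and 67.5% identity, below the limit of 70%. They have runs of 43 and 40 bases in common with the printed 159-bp copy of chromosome 1. Of the 38, 28 also had 20 or more 31-mers in common with an NDX-GFP peak, and 17 NDX-GFP peaks had such sequence.

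The second family had 19 members in 267 kb of chromosome 1, with scores of 98 to 225 and a median of 143, and 14 of them carried the telomere motif. The third also had 19 members, but they lay on all 5 chromosomes, with 3, 1, 4, 5 and 6 members on chromosomes 1 to 5, and scores of 87 to 207 around a median of 137. None of these was in a tandem array or held the telomere motif. A family of 6 was spread over chromosomes 2, 3, 4 and 5, with scores of 84 to 224, and 2 more of 6 kept to chromosome 1 (123 to 203) and to 43.1 kb of chromosome 4 (90 to 160). Members were joined in chains, so a given pair of 1 family need not have a stretch in common.

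The telomere motif TTTAGGG, or its reverse complement CCCTAAA, stood in 67 members, 10.4%, against 3.65% of the windows and 1.58% of the arm peaks. Telomere-like tracts inside chromosomes are a known feature of plant genomes. Among the shared pericentromeric peaks the share was 20.6%. The difference from the windows was present on chromosome 1, where 18.2% of members and 6.66% of windows had the motif, and on chromosomes 2 to 5, where 6.08% and 2.84% did. It was smaller in members free of repeats, at 3.11% against 2.23% of windows free of repeats, and outside the sequence families the share of members was 6.83%. Within 0.5 Mb of the zone centres, 52 of 267 members (19.5%) and 7.69% of windows had the motif, so both shares were higher there.

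The motif was often repeated within a member. At least 3 copies stood in 37 members, 5.76%, against 0.734% of the windows, and 29 of the 37 lay on chromosome 1, all within 994 kb of the zone centre. Their scores ran from 94 to 225 with a median of 125.5. The most copies, 20, were in chr1:15272521-15272925, the telomere-like member printed above, whose score of 225 was the eighth highest and which lay 390 bp from an NDX-GFP peak. In 19 of the 37 the best lag of self-identity was 21, 28, 35 or 42 bp, multiples of the motif's 7, though at only 37.9 to 46.2% identity, so none of these was counted as a tandem array for it.

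Long runs of alternating A and G were rare and included the highest score. An uninterrupted run of at least 20 bases on either strand stood in 7 members, 1.09%, against 0.0749% of the windows and 0.528% of the arm peaks. In these 7 the runs inside the peak were 62 to 123 bases long. The highest score was 334.5, at chr2:4733716-4733895. The other 6 scored 205, 188, 182, 126, 125 and 116, and the first 3 of these were among the 40 highest of the 642. The non-genic sequence of the zones holds 36 runs of 60 bases or more. Of these, 7 overlapped a member, 29 overlapped no FLAG-NDX peak, and 0 overlapped an NDX-GFP peak.

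Among the other motifs searched, the shares in members lay above those in windows for GAGAGA and below them for the rest. TAAT or ATTA, the homeodomain core, stood in 74.9% of members, 79.8% of windows and 85.8% of arm peaks. The G-box CACGTG, a site for bHLH and bZIP factors, was in 1 member (0.156%) and in 1.00% of windows. CATGCA, the core of the RY element that B3 domain proteins bind, or its reverse complement TGCATG, was in 5.45% of members and 5.72% of windows. GAGAGA or TCTCTC, the motif of GAGA-binding factors, was in 9.97% and 8.49%. A run of 8 A, or of 8 T, was in 3.58% of members against 10.97% of windows and 10.3% of arm peaks. That run was in 4.90% of the shared pericentromeric peaks and 3.125% of the FLAG-NDX-only peaks in pseudogenes of the zones. For TAAT or ATTA these classes had 76.5% and 77.0%, and for the G-box 0% and 0.391%. The low shares of these 3 motifs were thus not particular to the members. A match says only that these letters stand in the peak.

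**Figure D5:**
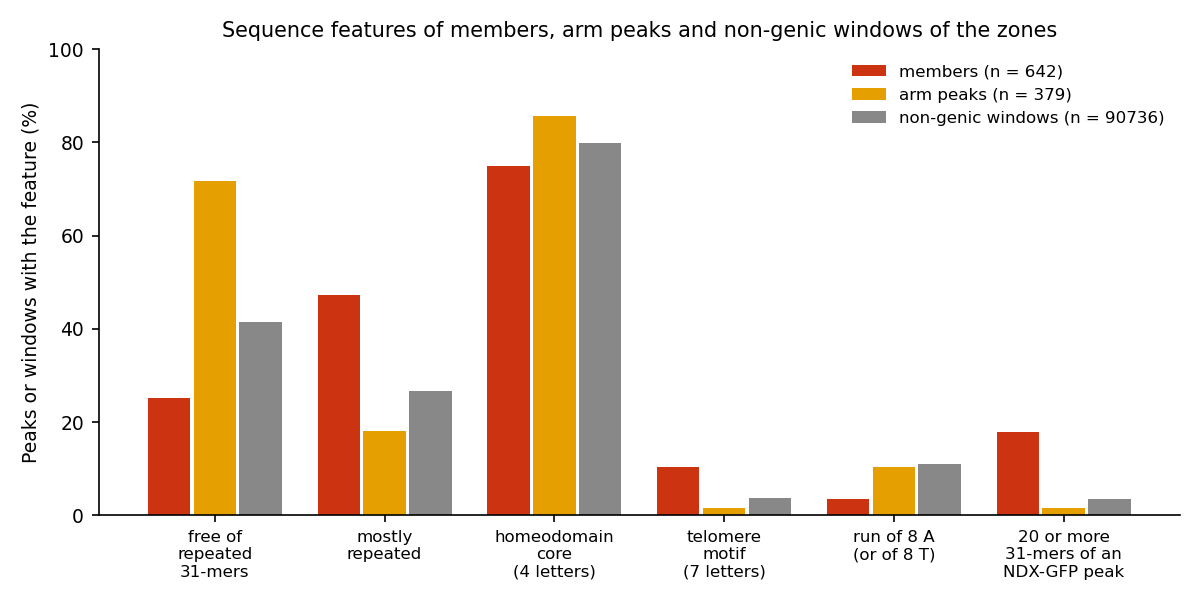
Percentage of members (n = 642), arm peaks (n = 379) and 135-bp non-genic windows of the zones (n = 90736, or the 90251 that overlap no NDX-GFP peak for the last feature) with each feature of sequence, as bars from 0. Members exceed windows in repeated sequence (47.2 against 26.7%), in the telomere motif (10.4 against 3.65%) and in NDX-GFP sequence (17.9 against 3.498%), and fall below them in the homeodomain core and in runs of 8 A or 8 T.

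Although no member overlapped an NDX-GFP peak, some had its sequence. At least 20 31-mers were common to an NDX-GFP peak and to 115 members, 17.9%, against 3.498% of the windows that overlap no NDX-GFP peak and 1.58% of the arm peaks. The share was 30.3% on chromosome 1, where 7.15% of such windows had it, and 10.9% on chromosomes 2 to 5, where 2.52% did. It was 27.8% in the 266 members under 10 kb from an NDX-GFP peak and 10.9% in the 376 farther away. The members with such sequence had a median score of 128 and a median width of 180 bp, against 117 and 135 bp in the others. Wider peaks hold more 31-mers, and the part of width in this was not tested.

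The nearest NDX-GFP peak lay a median of 15270 bp from a member, with quartiles of 3780 and 43646 bp. It was within 1 kb of 63 members (9.81%) and over 100 kb away from 50. The rule drew its line through neighbouring peaks. The member at chr5:12054886-12054990, with a score of 114, abutted an NDX-GFP peak with no base between them, and the FLAG-NDX peak at chr4:3112636-3112770, with a score of 189, was left out for an overlap of 15 bp. The member at chr1:13792516-13792620 (score 104) had its midpoint 5 bp outside AT1G36540, and the peak at chr1:13715926-13716045 (score 193) was left out with its midpoint 12 bp inside AT1G36406. The zone edges passed 0.122 kb from the member at chr1:12800026-12800220 and 9.005 kb from the nearest peak outside.

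The feature nearest to a member was a pseudogene for 446 members (69.5%), a protein-coding gene for 162 (25.2%) and another gene, such as one for a non-coding RNA, for 34. In the non-genic windows of the zones the shares were 60.03% for pseudogenes and 32.4% for protein-coding genes. The median distance to the nearest gene or pseudogene was 1232.5 bp, against 768 bp for windows, 633 bp for arm peaks and 1668 bp for the shared pericentromeric peaks. More than 5 kb from any lay 114 members (17.8%), against 6.92% of windows. The nearest protein-coding gene was a median of 11250.5 bp away and at most 213636 bp. Within 1 kb upstream of a protein-coding gene lay 41 members (6.39%), against 13.3% of windows. Members thus lay farther from genes than the non-genic sequence of the zones did as a whole, a difference that was not tested. Members also lay nearer the zone centres than the windows did, and the part of position in this was not tested. The genes on either side ran on the same strand for 329 members, ended toward the member for 165 and started toward it for 148. The whole peak was clear of genes and pseudogenes in 620.

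A list of 36 genes of small RNA production, DNA methylation and silencing was compared with the members, and 33 of the names matched the annotation. Of these, 4 lay in a zone. CLSY1 (AT3G42670), which encodes a chromatin remodeller that brings RNA polymerase IV to its targets, had a member 1516 bp from it, on the side of its 5′ end. That member, chr3:14762146-14762310, is printed above, had the score of 205 and holds one of the long A and G runs, of 66 bases. It lies closer to the neighbouring pseudogene AT3G42680, 643 bp away, and 81270 bp from the nearest NDX-GFP peak. For the other 3 genes the nearest member was farther. DRD1 (AT2G16390), a remodeller needed for methylation guided by RNA, had it at 5549 bp with a score of 98, DCL3 (AT3G43920), which cuts the precursors of small interfering RNAs, at 12746 bp with a score of 114, and NDX itself (AT4G03090) at 37817 bp with a score of 100.

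The 10 highest scores fell in several classes of sequence. After the run of A and G on chromosome 2 came the member in the 159-bp array at chr4:4061746-4061910 with 291, which lay 8721 bp from the protein-coding gene AT4G06744, and the fully repeated chr5:10403491-10403760 with 283.5, whose 31-mers occur a median of 12 times. Then followed the members of 236, 233 and 230.5 with a twin 45653 bp away, chr1:14998411-14998575 in the 159-bp arrays with 227.5, the telomere-like chr1:15272521-15272925 with 225, chr3:12050596-12050745 of the family on 4 chromosomes with 224, and chr1:16884946-16885110, free of repeats, with 223. In all, 9 of the 10 had more than 50% of their 31-mers repeated, and 6 lay on chromosome 1.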

How the data were processed

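The authors deposited peaks in BED form on TAIR10, 1 list a line, each peak with a score whose unit is not given. The submitters' processing notes name Bowtie2, SAMtools, Picard, deepTools and MACS2, without versions, and the way in which the pairs of immunoprecipitations were joined is not given in the sources used here. Peaks were set against the TAIR10.1 sequence and annotation from RefSeq. Both lists lie within its 5 nuclear chromosomes.

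The members and lists were chosen with earlier results of these data known. The rule for named members took the 10 highest scores, the highest of each chromosome and of the 5 largest families, the 5 highest free of repeats, those just inside and outside the limits, and those nearest to silencing genes. Others named (unit lengths, groups, exact copies, runs of A and G) were chosen after their values were seen. The common sequence with NDX-GFP peaks, the exact copies, the density by distance, the genes nearest to windows, the counts of telomere motifs and the runs of A and G were added after the data were examined.

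Repeats were counted as words of 31 bases on either strand. Python 3.11.15 with numpy 2.4.6, scipy 1.17.1 and matplotlib 3.10.9 was used, and the steps that find repeats, tandem lags and families were tested on simulated sequence. No test was run, since each line has 1 list. The closing section gives the alternatives.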

Additional observations from a re-analysis of the deposited data

How the results depend on the processing

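Of 139 values recomputed, 103 stayed within a set limit and 36 did not. The limit was a counting interval of 95%, or a factor of 1.5 for the number of members and for the density ratio. That interval treats the peaks of 1 list as independent, which they are not, and the alternatives largely reuse the same peaks. The counts therefore only sort the values by size of change and do not measure how well a result would be reproduced. No paired analysis was possible because the lists have no replicates, and none was left out. Organelle sequence stayed at 0% except with words of 21 bases, where it was 0.312%, and the directions against windows were not recomputed except where given.

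With scores of at least 150, members fell to 108, with a median score of 173.5, 15.7% free of repeats, 51.9% over 50% repeated, a median GC content of 35.2%, 19.4% within 5 kb of another and 21.3% in families, and the telomere motif stood in 15.7%. At 100 or more the median score was 124. With zones of 1.5 Mb on either side, 18.8% were free of repeats, 51.8% over 50% repeated, 49.9% within 5 kb of another and the median gene distance was 1502 bp. With 4 Mb, 29.6% were free of repeats and 9.92% lay upstream of a protein-coding gene. When midpoints within 1 kb also counted as shared, 37.8% lay within 5 kb of another.

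Words of 21 bases gave 14.0% free, 60.3% over 50% repeated and 39.6% in families, and words of 51 gave 42.7%, 35.4% and 11.7%. Neighbours were 18.8% within 1 kb and 56.9% within 10 kb. Tandem members were 14.6% at 60% identity and 2.34% at 80%. Upstream shares were 2.96% at 500 bp and 12.3% at 2000 bp. These change by construction, as looser limits admit more.

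Among alternatives added later, a minimum of 50 common 31-mers left 7.48% with NDX-GFP sequence, and leaving out chromosome 1 left 10.9%. The density ratio was 2.76 without chromosome 1 and 2.21 in sequence free of repeats.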
